A study of Mus musculus with 6 samples.

Results

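Collagen genes encode the chains of the triple-helical proteins that give tissues their tensile strength and their basement membranes. They were taken as every gene on the array whose name is Col, a number, a and a number, which gave 43 genes from 68 probes, each represented by its brightest probe. Of these, 40 rose far enough above background to be tested among 24570 genes: 11 of 11 fibrillar collagens, 6 of 6 basement membrane collagens and 23 of 26 others. Col10a1, a short-chain collagen of growth cartilage, Col19a1 and Col28a1 were not well above background on any of the 6 arrays. The 40 that were tested were well above background on all 6.

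RNA came from whole testes of male mice at postnatal day 0 on a mixed FVB.129/Sv background. All animals are labelled as carrying Vasa-cre, a Cre recombinase driven by the germ cell gene Ddx4 (Vasa), and there were 2 animals in each of 3 groups. VSKO animals carried 1 deleted and 1 floxed Sin3a allele (Vasa-cre;Sin3a deleted/floxed), HEMI animals 1 deleted and 1 normal allele (deleted/+), and WT animals normal alleles only (+/+). Sin3a encodes the scaffold of a histone deacetylase co-repressor complex. The Cre acts in germ cells, whereas most collagen is made by somatic cells, and the whole organ was measured, so that fewer cells of a type and less RNA per cell cannot be told apart. The study asked how testicular gene expression differs after loss of Sin3a in germ cells.

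Collagen chains fold in threes in the endoplasmic reticulum, where prolyl and lysyl hydroxylases modify them, and the trimers are secreted, trimmed and cross-linked. In the testis, fibrillar collagens lie in the interstitium and the tunica albuginea, the fibrous capsule. Type IV collagen forms a network in the basement membranes of the cords and vessels. FACIT collagens (fibril-associated collagens with interrupted triple helices) sit on the surface of fibrils.

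On each array 59.2% to 64.53% of the 59305 non-control spots were well above background and none was saturated. Values are given as log2 signal relative to the 75th percentile of the array, so 0 is that percentile, and a difference of 1 is a 2-fold change. Signals of different probes are not on 1 scale and were compared only between animals. Sin3a read 0.61 and 0.38 in the VSKO testes, 0.89 and 0.89 in HEMI and 1.09 and 1.11 in WT; VSKO lay 0.60 ± 0.13 (SE) below WT (limma adjusted p = 0.135), in whole organs of which germ cells are a part. The testis markers Sox9 and Amh (Sertoli cells) and Ddx4 and Dazl (germ cells) were well above background on every array. The VSKO and HEMI arrays lay in 1 row of the slide and the WT arrays in the other, so row and genotype cannot be told apart in comparisons with WT.

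Col22a1, a FACIT collagen known from tissue junctions such as that of muscle and tendon, was higher in the knockout testes. Its log2 signal was 0.31 and 0.18 in VSKO, -1.53 and -1.27 in HEMI and -1.60 and -1.40 in WT. Both knockout animals stood clear of the other 4, and the HEMI and WT animals overlapped. The group means were 0.24 ± 0.09 (SD, n = 2), -1.40 ± 0.18 (n = 2) and -1.5 ± 0.14 (n = 2). VSKO exceeded WT by 1.74 ± 0.15 (SE) on the log2 scale, or 3.34-fold, with a limma adjusted p of 0.0279 over all genes. VSKO exceeded HEMI by 1.65 ± 0.15, or 3.13-fold, with an adjusted p of 0.0552, just short of the threshold of 0.05. HEMI differed from WT by 0.09 (95% confidence interval -0.30 to 0.48).

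Col22a1 was read by 2 probes, which are shown because the finding rests on them. In the mm9 mouse build the probe used covers chr15:71628906-71628965, at base 6068 of its transcript, and the second covers chr15:71699345-71699404, at base 565. The first 30 of their 60 bases are, 5′ to 3′:
A_55_P2031781: tcaagttcctcatgctggtttcaattgtgt
A_52_P434306: ctcctggaaaaccagtatgtcacctgccgg
The second probe read -1.97 and -1.66 in VSKO, -2.76 and -2.47 in HEMI and -2.83 and -2.71 in WT. Again both knockout animals lay above the other 4. Its differences were smaller, 0.95 ± 0.18 from WT (adjusted p = 0.109 with every probe fitted on its own) and 0.80 ± 0.18 from HEMI (adjusted p = 0.295), so this probe alone was not called.

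**Figure D1:**
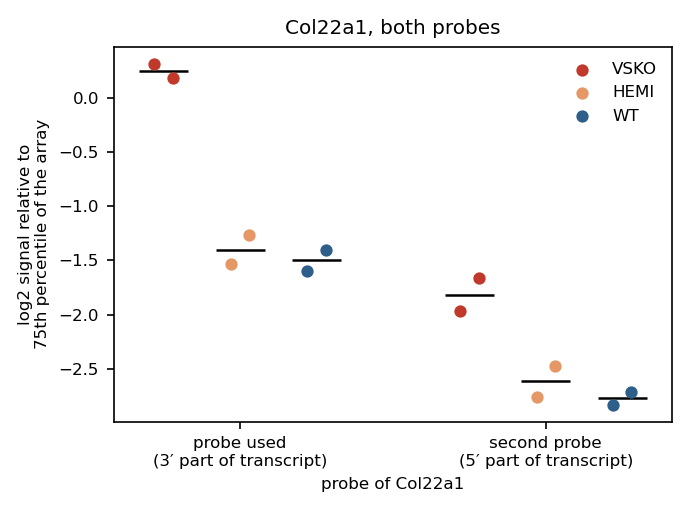
Log2 signal of the Col22a1 probe used and of the second probe, relative to the 75th percentile of each array. Points are single animals, bars the means of 2; with both probes the VSKO animals lie above the HEMI and WT animals.

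The Col22a1 call from WT was lost when any 1 of the 6 arrays was left out, with differences of 1.64 to 1.84. With 1 animal left in VSKO or WT, however, the fit cannot judge the call. Leaving out either HEMI array is the same fit here as only the 4 arrays compared (limma adjusted p = 0.0584). The call was also lost with no filter on dim probes (limma adjusted p = 0.0715). The difference stayed between 1.35 and 1.84 over 18 alternatives, 9 of which made the call. Not all 18 are distinct, since median scaling and the deposited series values also gave equal fits. Comp, a cartilage and tendon matrix protein among the 10 listed cartilage and bone markers, moved with it: -0.88 and -1.12 in VSKO, -2.30 and -2.07 in HEMI, -2.73 and -2.45 in WT, a rise of 1.59 ± 0.17 over WT (adjusted p = 0.0365; 0.0742 to 0.163 with 1 array left out). Of the other 9 markers, Acan, Chad, Snorc and Runx2 were below WT without passing the test, and Matn1, Matn3, Ibsp, Bglap and Sp7 were not tested because they were too dim. The summed signal of the tested cartilage and bone markers was 0.836 to 1.04 in VSKO, 0.516 to 0.638 in HEMI and 0.678 to 0.778 in WT. Comp alone set VSKO apart: without it the sums were 0.491 and 0.376 in VSKO, 0.313 and 0.4 in HEMI and 0.627 and 0.495 in WT. Skeletal muscle markers (7 of 8 tested) did not separate the knockout animals: their summed signal was 8.39 and 14.8 in VSKO, 12.9 and 33.5 in HEMI and 35.6 and 9.62 in WT. The part of either cell type in the Col22a1 difference was not tested.

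Across the whole family, few collagens differed between the genotypes. In VSKO against WT, 1 of the 40 collagens passed the limma test (Col22a1), beside 0.956% of all genes, and 3 had an unadjusted p under 0.05, beside 14.7% of all genes. The animals of the groups did not overlap for 11 collagens (6 higher, 5 lower), or 27.5%, beside 45.7% of all genes. In HEMI against WT 0 of the 40 passed by limma, beside 0.118% of all genes; 1 had an unadjusted p under 0.05, beside 12.4%, and 10 did not overlap (3 higher, 7 lower), beside 49.3%. In VSKO against HEMI 0 passed by limma, beside 0.147%; 2 had an unadjusted p under 0.05, beside 7.68%, and 4 did not overlap, beside 32.9%. The first 2 comparisons share the WT animals. The collagens' shares at the unadjusted threshold and without overlap lay below those of all genes in each comparison.

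The median difference of the 40 collagens was 0.06 in VSKO against WT, 0.02 in HEMI against WT and 0.06 in VSKO against HEMI, where all genes had medians of -0.01, -0.02 and 0.02. The 95% confidence interval of the difference lay wholly within 2-fold either way for 26 of 40 collagens (65.0%) in VSKO against WT, for 29 (72.5%) in HEMI against WT and for 28 (70.0%) in VSKO against HEMI. Over all genes these shares were 74.3%, 76.0% and 78.6%. For the remaining collagens a 2-fold change was not excluded by 2 animals a group.

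**Figure D2:**
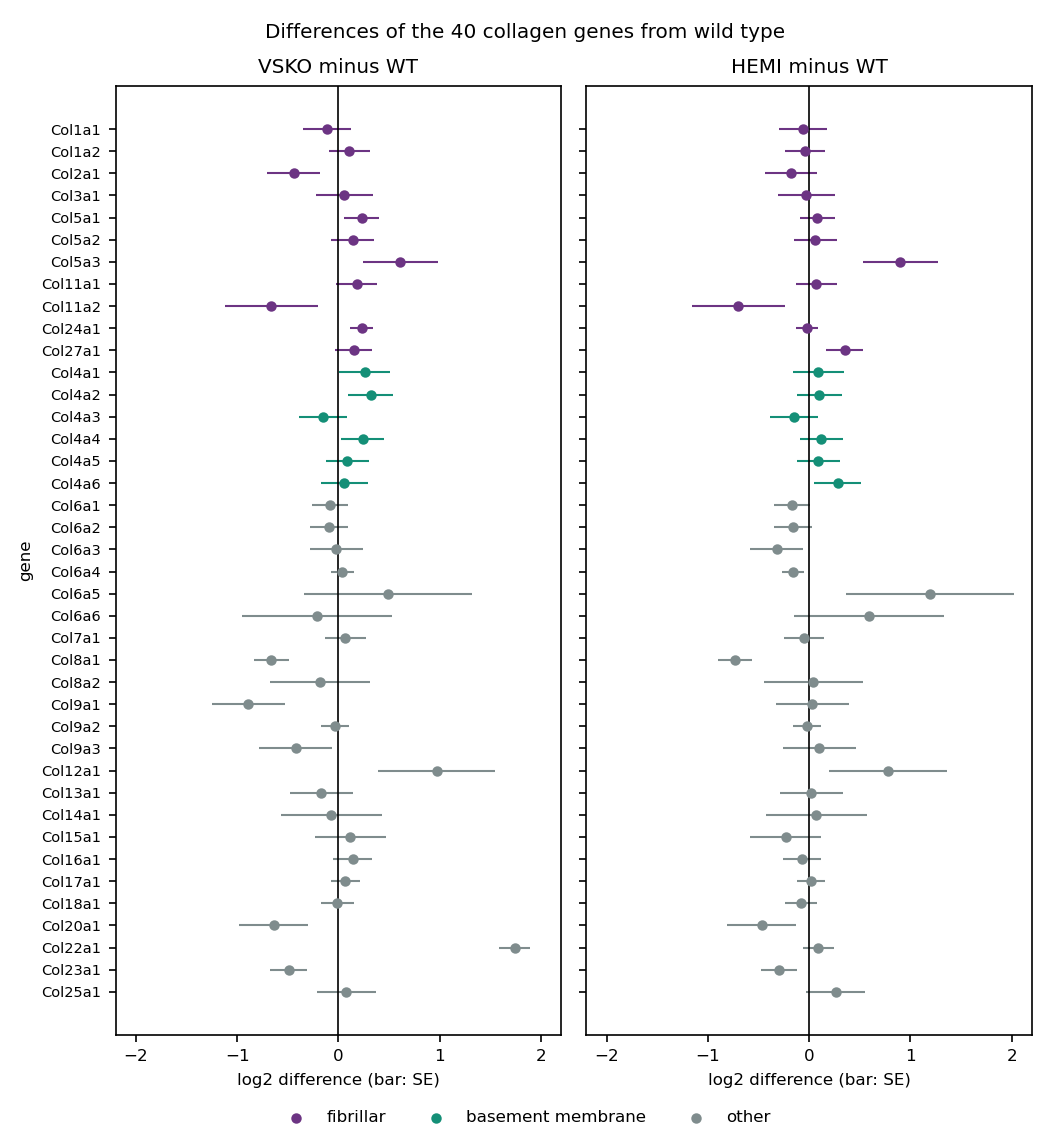
Log2 difference from WT of each tested collagen in VSKO (left) and HEMI (right), coloured by class; bars are standard errors. Col22a1 in VSKO, at 1.74, is the point farthest from 0; every other point except Col6a5 in HEMI, at 1.19, lies within 1 of 0.

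The fibrillar collagens form the load-bearing fibres. Col1a1, the alpha 1 chain of type I collagen (probe at chr11:94813115-94813174, mm9), read 5.83 and 6.05 in VSKO, 6.32 and 5.67 in HEMI and 6.06 and 6.05 in WT. The 2 WT animals were nearly equal, and the HEMI animals lay on either side of all others. VSKO differed from WT by -0.11 (95% interval -0.72 to 0.49) and HEMI from WT by -0.06 (-0.66 to 0.54). Col1a2, whose chain joins 2 Col1a1 chains in the type I trimer, read 7.45 and 7.56, 7.61 and 7.10, and 7.33 and 7.46 in the same order. It differed from WT by 0.11 (-0.39 to 0.61) in VSKO and by -0.04 (-0.54 to 0.46) in HEMI.

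Col3a1, the type III chain of reticular fibres (probe at chr1:45405589-45405648), read 6.07 and 6.40 in VSKO, 6.53 and 5.77 in HEMI and 6.18 and 6.18 in WT. The HEMI animals were again the highest and the lowest of the 6. The difference from WT was 0.06 (-0.65 to 0.76) in VSKO and -0.03 (-0.73 to 0.67) in HEMI, and adjusted p was at least 0.946 in both by limma. In HEMI against WT the sign of Col1a1, Col1a2 and Col3a1 turned under quantile scaling, so no direction is given for them.

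The fibrillar chain farthest above WT was Col5a3, a minor type V chain. It read 0.00 and 0.45 in VSKO, 1.02 and 0.01 in HEMI and -0.25 and -0.52 in WT, so that all 4 carriers of a deleted allele lay above both WT animals. Its differences of 0.61 ± 0.37 (VSKO) and 0.90 ± 0.37 (HEMI) had adjusted p of 0.515 and 0.415. The chain farthest below was Col11a2, a cartilage fibril chain, with -3.72 and -5.05 in VSKO, -4.20 and -4.66 in HEMI and -3.59 and -3.87 in WT. Its differences, -0.66 and -0.70 with SE 0.46, did not pass, and the VSKO animals were 1.33 apart.

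Col24a1, a fibrillar chain first described in bone and cornea, had the highest positive fibrillar difference of VSKO from HEMI, 0.25 ± 0.11 (adjusted p = 0.751; Col5a3, at -0.29, was the farthest below), with VSKO at -3.36 and -3.38 and HEMI at -3.60 and -3.64. Its animals differed little within a group, and the groups did not overlap. Of the remaining fibrillar chains, Col5a1, Col5a2, Col11a1 and Col27a1 lay 0.14 to 0.23 above WT in VSKO and 0.06 to 0.35 above in HEMI, and Col2a1, the main cartilage collagen, lay below by 0.44 and 0.18. None of the 11 had an unadjusted p under 0.05 in any comparison. The class median was 0.14 in VSKO and -0.02 in HEMI relative to WT.

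The 6 basement membrane chains belong to type IV collagen. Col4a1 (probe at chr8:11199009-11199068) read 5.02 and 4.34 in VSKO, 4.43 and 4.58 in HEMI and 4.31 and 4.53 in WT. Col4a2 (probe at chr8:11448840-11448899), which forms the common type IV trimer with it, read 4.63 and 4.06, 4.05 and 4.21, and 3.95 and 4.10. VSKO 1 was the highest animal for both chains, whereas VSKO 2 lay among the HEMI and WT animals. The differences of VSKO from WT were 0.26 (95% interval -0.38 to 0.89) and 0.32 (-0.24 to 0.88), and those of HEMI 0.09 (-0.55 to 0.72) and 0.10 (-0.45 to 0.66). Without VSKO 1 they were -0.08 for Col4a1 and 0.03 for Col4a2 in VSKO against WT.

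The other 4 type IV chains are made in fewer tissues. Col4a3 read -2.90 and -3.41 in VSKO, -2.95 and -3.37 in HEMI and -3.07 and -2.95 in WT, and was the chain farthest below WT, by 0.15 ± 0.24 in both carrier groups. Col4a4, its partner, read 1.79 and 1.28, 1.42 and 1.41, and 1.17 and 1.42. Col4a5 read 1.42 and 1.45, 1.72 and 1.15, and 1.30 and 1.39. Col4a6, which pairs with Col4a5 in epithelial and smooth muscle basement membranes, read 0.77 and 0.66, 1.25 and 0.61, and 0.66 and 0.65. For Col4a5 and Col4a6 the highest animal was HEMI 1 and the lowest HEMI 2. No type IV chain had an unadjusted p under 0.05 by limma in any comparison, and the class medians were 0.17 (VSKO against WT), 0.10 (HEMI against WT) and 0.06 (VSKO against HEMI). The first of these rested on VSKO 1: it was -0.01 without that animal and 0.31 without VSKO 2.

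The type IV genes lie in 3 head-to-head pairs (Col4a1 with Col4a2, Col4a3 with Col4a4, Col4a5 with Col4a6). The chains of each pair shared their highest animal, VSKO 1 in the first 2 pairs and HEMI 1 in the last. For Col4a3 this rested on -2.90 in VSKO 1 against -2.95 in HEMI 1 and in WT 2. Col4a3 and Col4a4 went opposite ways in VSKO against WT, by -0.15 and 0.24. How often other gene pairs share their highest animal was not counted. In the RefSeq tables (GRCm38.p6) 35 of the 43 collagens had a promoter window, 250 bases before to 50 after the gene start. Col4a1 (minus strand) and Col4a2 (plus strand) start 21 bases apart on chromosome 8, and their windows share 78 bases. By these strands each start lies just inside the other transcript, so the bases between the starts are downstream of both. The stretch between these starts and the 250 bases upstream of Col4a5 and Col4a6, whose starts are 1343 bases apart on chromosome X, are shown 5′ to 3′ on the strand named, with capitals for GGGCGG (GC box) and CCAAT on either strand.
chr8:11312805-11312826, plus strand: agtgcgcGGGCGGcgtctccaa
Col4a5, chrX:141475169-141475418, plus strand: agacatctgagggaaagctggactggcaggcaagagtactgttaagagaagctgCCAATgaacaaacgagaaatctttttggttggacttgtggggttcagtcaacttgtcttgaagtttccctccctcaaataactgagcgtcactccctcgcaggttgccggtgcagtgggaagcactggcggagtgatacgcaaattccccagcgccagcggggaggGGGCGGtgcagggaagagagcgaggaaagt
Col4a6, chrX:141474077-141474326, minus strand: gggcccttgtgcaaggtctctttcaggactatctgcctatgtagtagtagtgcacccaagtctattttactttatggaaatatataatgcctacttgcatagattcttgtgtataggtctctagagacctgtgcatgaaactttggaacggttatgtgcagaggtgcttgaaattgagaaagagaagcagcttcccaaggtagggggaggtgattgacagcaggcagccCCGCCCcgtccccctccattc
GGGCGG was present on either strand in 62.9% of the collagen windows and in 35.7% of all 32851 windows of 300 bases, and CCAAT in 34.3% and 37.4%. TATAAA was present in 14.3% and 13.6%, and in none of the 5 type IV windows searched (Col4a3 had none in the table). These counts describe letters only.

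Among the other collagens, Col8a1 had the lowest unadjusted p after Col22a1. This short-chain collagen of vessel walls and the eye (probe at chr16:57624471-57624530) read -4.41 and -4.05 in VSKO, -4.28 and -4.31 in HEMI and -3.68 and -3.44 in WT. All 4 carriers of a deleted allele lay below both WT animals, and VSKO and HEMI overlapped. The difference from WT was -0.66 ± 0.17 in VSKO (unadjusted p = 0.0109, limma adjusted p = 0.185) and -0.73 ± 0.17 in HEMI (unadjusted p = 0.00724, adjusted p = 0.207), and neither was called. Its partner Col8a2 did not share this order: it read 0.51 and 1.73 in VSKO, 1.82 and 0.87 in HEMI and 1.21 and 1.39 in WT. The Col8a1 signal was low, and with normexp background correction its VSKO difference from WT was -0.38. Col10a1, not above background, also read lower in the carriers, with means of -7.79 (VSKO), -7.82 (HEMI) and -7.41 (WT). In the same order Col28a1 read -7.69, -7.69 and -7.32, and Col19a1 -5.53, -5.82 and -5.55. The part of background in the Col8a1 difference was not tested.

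Col23a1, a transmembrane collagen, read -0.01 and -0.39 in VSKO, 0.08 and -0.10 in HEMI and 0.39 and 0.19 in WT. With the probe used, the carriers again lay below WT, by 0.49 ± 0.18 in VSKO (limma unadjusted p = 0.0399, adjusted p = 0.313). A second probe gave the same VSKO difference of -0.49. The dimmest Col23a1 probe read -2.78 and -3.31 in VSKO, -2.53 and -2.55 in HEMI and -2.46 and -2.62 in WT. Its VSKO difference from WT was -0.50, but its HEMI animals overlapped WT. Col9a1, a FACIT chain of cartilage, read -5.13 and -4.98 in VSKO, -3.58 and -4.68 in HEMI and -4.15 and -4.18 in WT, a difference of -0.93 ± 0.36 from HEMI (unadjusted p = 0.0482, adjusted p = 0.642). Its second probe went the other way, by 0.42, so no direction is given for the gene. Col6a5, a type VI chain, had the largest difference of HEMI from WT, 1.19 ± 0.83, which rested on HEMI 1: it read 0.01 there and -2.39 in HEMI 2, with the other 4 animals between -2.45 and -1.34. Without HEMI 1 the difference was -0.01.

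Col12a1, a FACIT collagen of dense connective tissue, read -0.46 and 0.32 in VSKO, 0.58 and -1.09 in HEMI and -1.15 and -0.92 in WT; its difference of 0.97 ± 0.58 from WT did not pass. The abundant type VI microfibril chains Col6a1, Col6a2 and Col6a3 differed from WT by -0.09 to -0.02 in VSKO and by -0.32 to -0.16 in HEMI. Col16a1, Col17a1, Col18a1, Col7a1 and Col9a2 lay within 0.14 of WT in both. Over the 23 other collagens the median was -0.03 in VSKO and -0.02 in HEMI relative to WT.

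**Figure D3:**
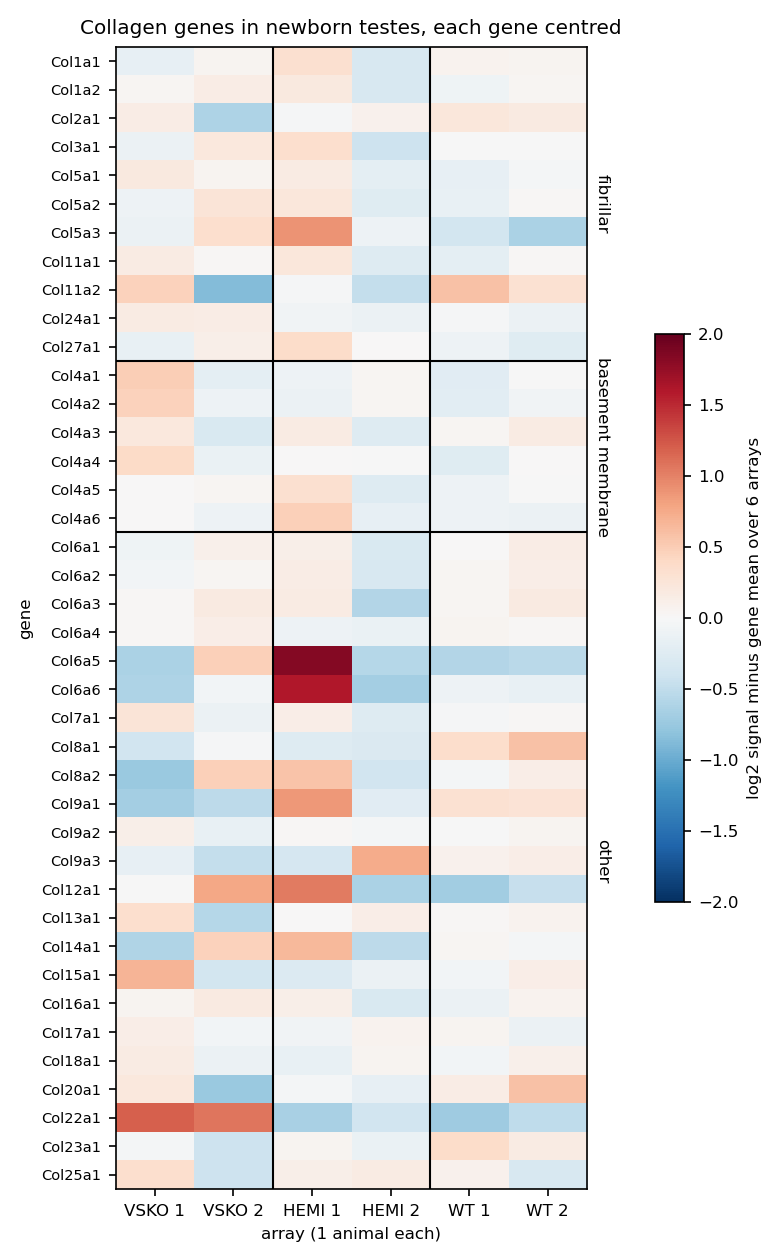
Log2 signal of the 40 tested collagens on each array minus the mean of the gene over 6 arrays, by class (red above, blue below the mean). Col22a1 is high in both VSKO animals; most other strong colours, such as Col6a5 and Col6a6, fall in 1 animal of a group.

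Animals of 1 group differed in their collagens, most in HEMI and least in WT. The 2 animals of a group differed by a median of 0.34 (VSKO), 0.42 (HEMI) and 0.14 (WT) in absolute terms, against 0.22, 0.17 and 0.16 over all genes. Gaps over 2-fold occurred in 5 of 40 collagens in VSKO (12.5%, against 5.4% of all genes), in 7 in HEMI (17.5%, against 4.3%) and in none in WT (3.6% of all genes). HEMI 1 exceeded HEMI 2 in 30 of 40 collagens, beside 48.7% of all genes. The largest gaps were 2.40 for Col6a5 and 2.28 for Col6a6 in HEMI and 1.33 for Col11a2 and 1.22 for Col8a2 in VSKO.

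The gaps were set beside those of markers of other cells. The 5 mesothelium and capsule markers (Upk3b, Msln, Lrrn4, Krt19 and Upk1b) were all higher in VSKO 2 than VSKO 1 and in HEMI 1 than HEMI 2, and their summed signal was 3.74 and 26.0 in VSKO, 19.9 and 6.66 in HEMI and 11.4 and 11.5 in WT. Of the collagens, 19 of 40 (47.5%) had the same order in both groups and 10 (25.0%) the opposite order, against 26.9% and 26.3% of all genes. Among those with the same order were 6 of 11 fibrillar collagens. The gaps of all 19 in VSKO ran from 0.02 (Col4a5) to 1.22 (Col8a2). Col14a1, a FACIT collagen of fibrous tissue, had 1 of the wider gaps, at 2.08 and 3.14 in VSKO, 3.33 and 2.16 in HEMI and 2.71 and 2.64 in WT. The order was not particular to mesothelium and capsule markers. Of 7 peritubular myoid and smooth muscle markers, 5 were higher in VSKO 2 and 7 in HEMI 1. Of 11 tested fibril-associated proteoglycans and glycoproteins these numbers were 10 and 11. Of 9 interstitial mesenchyme markers they were 4 and 5, and of all 24570 genes 12759 and 11957.

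The 10 with the opposite order were Col2a1, Col4a1, Col4a2, Col9a3, Col13a1, Col15a1, Col17a1, Col18a1, Col22a1 and Col25a1. Their share, 25.0%, lay near the 26.3% of all genes, so the collagens did not stand out in this order. Col15a1 and Col18a1, collagens of the basement membrane zone, were among the 10, as were 2 of the 6 type IV chains (33.3%). Col15a1 read -1.66 in VSKO 1 and -2.71 in VSKO 2. The 10 collagens were picked by their order, so a marker list with the same order is no evidence about them. Of the 8 Sertoli cell markers, 8 were higher in VSKO 1 than VSKO 2 and 7 higher in HEMI 2 than HEMI 1. Of the 8 endothelial markers these numbers were 7 and 6. Of all 24570 genes they were 11811 and 12613. Of 11 basement membrane partners, such as laminin and nidogen chains, 10 were higher in VSKO 1, but only 3 were higher in HEMI 2. Summed Sertoli signal was 97.8 and 91.0 in VSKO, 87.6 and 106 in HEMI and 88.6 and 86.5 in WT. The summed endothelial signal was 20.6 and 21.1 in VSKO, 21.5 and 20.0 in HEMI and 24.3 and 24.2 in WT, and Kdr alone was lower in VSKO 1. Markers of the mesonephric duct, epididymis and rete (7 of 7 tested) summed to 22.6 and 34.8 in VSKO, 35.7 and 25.6 in HEMI and 22.4 and 26.0 in WT. The part of these cells in the collagen gaps was not tested.

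**Figure D4:**
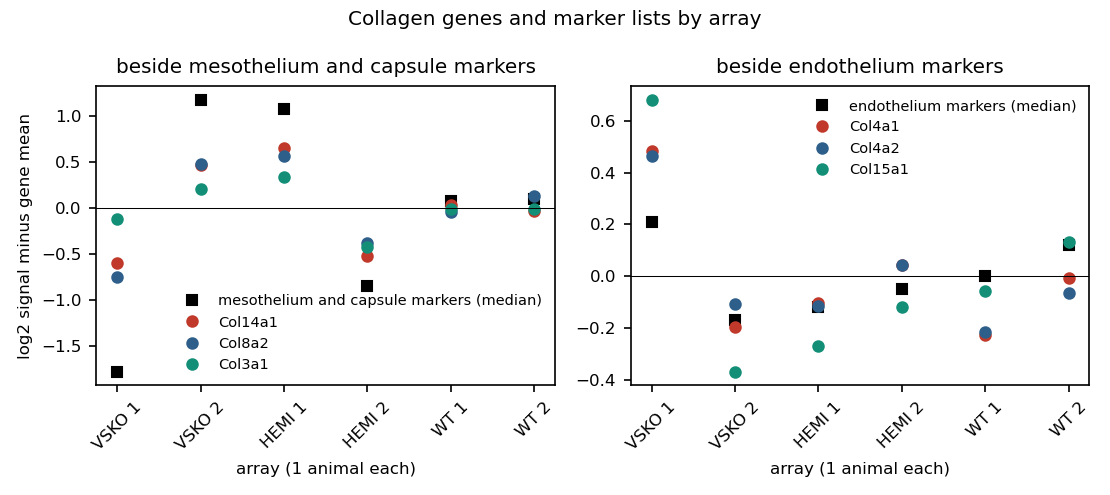
Log2 signal minus the gene mean on each array for Col14a1, Col8a2 and Col3a1 beside the median of 5 mesothelium and capsule markers (left), and for Col4a1, Col4a2 and Col15a1 beside that of 8 endothelial markers (right). The left-hand genes and markers are high in VSKO 2 and HEMI 1 and low in VSKO 1 and HEMI 2. The right-hand genes are highest in VSKO 1. The collagens drawn are examples picked with their values known. The left-hand order held for 19 of 40 collagens and the opposite order for 10.

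Genes that make, trim and bind collagen were read from 6 lists. Of 18 genes for hydroxylation, folding and secretion, 1 fell in VSKO against WT, beside 150 of all 24570 genes. This was P4ha1, a catalytic subunit of prolyl 4-hydroxylase. It read -1.47 and -1.11 in VSKO, -1.37 and -1.39 in HEMI and 0.00 and 0.23 in WT. All 4 carriers lay below WT, by 1.41 ± 0.17 in VSKO (limma adjusted p = 0.0447) and by 1.5 ± 0.17 in HEMI (adjusted p = 0.0714, not called). P4ha2, a second catalytic subunit, and Serpinh1, the collagen chaperone HSP47, differed by -0.52 (adjusted p = 0.242) and -0.41 (0.234) in VSKO and by -0.55 (0.294) and -0.51 (0.217) in HEMI. The list's median was -0.07 in VSKO and -0.26 in HEMI relative to WT. In HEMI 14 of 18 genes (77.8%) were below WT, beside 53.5% of all genes. In VSKO 11 (61.1%) were below WT, beside 51.3%. In VSKO against HEMI 2 (11.1%) were below 0, beside 44.6%. Colgalt2, a collagen galactosyltransferase, lay 0.44 below WT in HEMI (adjusted p = 0.255) and 0.63 higher in VSKO than in HEMI (0.18).

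Of 12 genes for procollagen cleavage and cross-linking, 1 fell in VSKO against WT, again beside 150 of all 24570 genes. This was Pcolce2, an enhancer of the C-propeptide proteinase. It read -3.87 and -3.65 in VSKO, -2.67 and -2.37 in HEMI and -2.28 and -2.49 in WT. Both knockout animals were lowest, by 1.38 ± 0.17 against WT (adjusted p = 0.0471) and 1.24 ± 0.17 against HEMI (adjusted p = 0.116, not called), and HEMI overlapped WT. Next by p were Loxl4, a lysyl oxidase (-0.84, adjusted p = 0.385), and Adamts14, an N-propeptide proteinase (-0.25, 0.431). The calls for P4ha1 and Pcolce2 were lost when any 1 array was left out, with differences of -1.59 to -1.23 and -1.49 to -1.26. With 1 animal left in VSKO or WT, the fit cannot judge these calls either.

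No member of the other 4 lists passed the limma test in any comparison; in VSKO against WT, unadjusted p was under 0.05 for 1 fibril-associated gene, 0 basement membrane partners, 2 receptors and 2 breakdown genes, beside 14.7% of all genes. Among 11 tested fibril-associated proteoglycans and glycoproteins, fibronectin (Fn1) had the lowest p, with 0.39 ± 0.13 in VSKO against WT (adjusted p = 0.284) and 0.44 in VSKO against HEMI (0.438). Among 11 basement membrane partners it was nidogen 1 (Nid1), with 0.32 ± 0.13 in VSKO against WT (0.362). Among 9 collagen receptors, the integrin chain Itga10 lay 0.42 below WT in VSKO (0.299) and the uptake receptor Mrc2 0.31 below (0.333). Among 10 tested genes of collagen breakdown and its inhibitors, the collagenase Mmp8 lay 1.01 ± 0.24 above WT in VSKO (0.158) and the gelatinase Mmp9 1.02 ± 0.17 lower in VSKO than in HEMI (0.148). Prelp and Mmp13 were too dim to test.

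Where a collagen had 2 or more usable probes, the brightest and the next brightest gave a difference of the same sign in 10 of 15 genes in each of the 3 comparisons, with a median gap between them of 0.18 in VSKO against WT. Col22a1 had the same sign with both probes in all 3 comparisons, although the sizes differed by 0.79 in VSKO against WT. Col9a1 had the widest disagreement in that comparison, 1.42.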

How the data were processed

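Total RNA of 6 whole testis samples was labelled with Cy3 and hybridised to 1-colour Agilent arrays, 1 array per animal, on 1 slide. The deposited files hold spot intensity from Agilent Feature Extraction 10.7.3.1, per the file headers (version 8.5.1.1 in the submitters' processing notes), with flags per spot. The deposited series intensity values equal the processed signal divided by a single number per array, within 0.00105%. Here log2 of the processed signal was reduced by the 75th percentile of each array, outlier spots were left out, and spots of a probe were averaged. The 34367 probes kept were those flagged well above background in both animals of 1 or more groups. Each gene was represented by its brightest kept probe. Groups were compared with limma 3.58.1 (R 4.3.3; lmFit and eBayes, 1 mean per group, 3 residual and 2.23 prior degrees of freedom), with Benjamini-Hochberg adjustment over 24570 genes; genes with adjusted p under 0.05 were called. Only the limma fit and its adjustment were tested on simulated log2 values, not the steps before them. Gene names are those of the array design; all 68 collagen probes kept their symbol in RefSeq. Promoter windows are from RefSeq. The members and gene lists were chosen with earlier results of these data known. Collagens named are Col1a1, Col3a1, Col4a1 and their trimer partners, those called or with unadjusted p under 0.05, and the largest difference each way per class; other names were chosen after their values were seen. From pathway lists, called genes and those among the 3 lowest p were eligible. Labels call the animals biological replicates; with 2 a group, their number limits the precision. Alternatives covered scaling, background correction, the dim-probe filter, the probe per gene, an intensity trend, the arrays fitted, a replicate block and each array left out. Some alternatives counted separately are equal fits. Median scaling equals the deposited series values. In VSKO against WT, the 4 arrays compared equal either HEMI array left out.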

Additional observations from a re-analysis of the deposited data

How the results depend on the processing

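The number of genes called moved with the settings. In VSKO against WT (235 called) it was 12 with no filter on dim probes, 48 with only the 4 arrays compared and 17 with the replicate block, and 0 to 69 with 1 array left out (0 without either WT array). In HEMI against WT (29) it was 52 with median scaling and with the authors' series values, 122 with normexp background correction, 57 with probes above background on all 6 arrays, 128 with an intensity trend, 4 with the 4 arrays compared, 0 with no filter (5275 at unadjusted p under 0.05 by limma) and 0 with the replicate block (2782), and 0 to 22 with 1 array left out. In VSKO against HEMI (36) it was 17 with quantile scaling, 74 with median scaling and the series values, 5 with no filter, 15 with all 6 arrays above background, 0 with the 4 arrays compared (1734) and 0 with the replicate block (1864), and 0 to 41 with 1 array left out.

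The P4ha1 and Pcolce2 calls held in 7 and 6 of 17 alternatives, with adjusted p of 0.0182 to 0.181 and 0.0366 to 0.21. The collagen count in VSKO against WT went from 1 to 0 with no filter (3 at unadjusted p under 0.05 by limma), with the 4 arrays (5), with the replicate block (3) and with each array left out (0 to 0). In VSKO against HEMI it rose from 0 to 1, Col22a1, with normexp (adjusted p = 0.0211) and an intensity trend (0.0389). In HEMI against WT it was 0 throughout. Animals of the same replicate number shared no pattern over all genes (correlations of deviations -0.037, -0.028 and -0.007), which cannot exclude a pairing. An arm left with 1 animal was taken to vary like the others. The collagen median with 1 array left out ranged from -0.17 to 0.10 in HEMI against WT and from -0.14 to 0.26 in VSKO against HEMI, with HEMI 1 and HEMI 2 at the ends; in VSKO against WT it stayed between 0.01 and 0.06 over all 17 alternatives.

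Signs that turned belonged to uncalled genes. In HEMI against WT, quantile scaling gave 0.06 for Col1a1, 0.15 for Col1a2 and 0.09 for Col3a1, and median scaling and the series values gave 0.01 for Col3a1. With 1 array left out the differences spanned, in VSKO against WT, -0.10 to 0.22 for Col3a1, -0.08 to 0.60 for Col4a1, -1.32 to 0.01 for Col11a2 and -0.40 to 0.11 for Col4a3. In HEMI against WT they spanned -0.38 to 0.26 for Col1a1, -0.29 to 0.21 for Col1a2, -0.41 to 0.35 for Col3a1, -0.02 to 0.19 for Col4a1, -0.04 to 0.60 for Col4a6, -0.37 to 0.06 for Col4a3 and -0.01 to 2.40 for Col6a5. In VSKO against HEMI they spanned -0.38 to 0.27 for Col1a1, -0.10 to 0.40 for Col1a2, -0.29 to 0.47 for Col3a1, -0.17 to 0.51 for Col4a1, -0.07 to 0.50 for Col4a2, -0.79 to 0.21 for Col5a3 and -0.54 to 0.11 for Col4a6. The cause of these shifts was not tested.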
